A study of Mus musculus with 12 samples.

Results

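Nrf2 binding was examined around 4 mouse genes that supply the cell with NADPH or carry sugars through the pentose phosphate pathway: Taldo1, Pgd, Tkt and Me1. The sites were all peaks within 50 kb on either side of the approximate start of each gene in the mm9 genome, taken from chromatin immunoprecipitation followed by sequencing (ChIP-seq) with an anti-Nrf2 antibody. The windows held 21 of the 8644 peaks deposited, and these merged into 4 of the 4147 regions of the whole data set. Taldo1 had 2 regions, Pgd 1, Tkt 1 and Me1 none.

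The cells were peritoneal macrophages drawn into the abdominal cavity of mice aged 7 to 8 weeks with 4% thioglycolate broth, collected 4 days later and cultured. All of them, of both genotypes, had been exposed to diethyl maleate, an electrophile that stabilises Nrf2, at 100 µM for 4 hours, so no unstressed state was measured. Wild-type (WT) cells were compared with Nrf2 AY/AY (AY) cells, which are homozygous for an allele in which, as is known of it, tyrosine replaces an alanine of the DNA-contacting surface of Nrf2. There were 3 ChIP libraries per genotype, and 6 input libraries that were not analysed here. Whether each library had its own animals is not in the labels, so p-values reflect how far these libraries scatter, and that scatter may be technical. WT replicate 3 stood apart by its peaks on X and the random sequence of X, 7.89% of its list against 1.44% to 2.87% in the other libraries, and on Y the lists of WT replicates 1 and 3 were empty while the others held 15 to 27 peaks. Lists with Y peaks were thus all 3 of AY but only that of WT replicate 2, so this difference goes partly with genotype. The genes described here are on other chromosomes, and whether the difference bears on their peaks was not tested. With 3 libraries against 3, a two-sided exact permutation test over the 20 assignments of labels cannot give a p below 0.1.

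The pentose phosphate pathway has an oxidative branch, which reduces NADP+ to NADPH, and a non-oxidative branch, which exchanges carbon units between sugar phosphates and returns them to glycolysis. NADPH is the electron source for the regeneration of glutathione and thioredoxin, and in macrophages also for the oxidase that makes superoxide. Nrf2 binds DNA together with a small Maf protein at antioxidant response elements, and genes of both branches are textbook Nrf2 targets. Pgd encodes phosphogluconate dehydrogenase, an NADPH-forming enzyme of the oxidative branch. Taldo1 encodes transaldolase and Tkt encodes transketolase, the sugar-exchanging enzymes of the non-oxidative branch. Me1 encodes the cytosolic malic enzyme, which forms NADPH outside the pathway while turning malate into pyruvate.

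The sequence just before each gene start is shown because none of the 21 peaks came that near to an approximate start, whereas Me1, the gene without a peak, has the core of an antioxidant response element there. The sequences are RefSeq promoters of the GRCm38.p6 build, matched by symbol (4 of 4 genes), and their coordinates are not those of the mm9 peaks. Each is read along the gene from 250 bases before its start. It ends at the last base before the start (base -1), except for Me1, where 3 bases more complete the match. Capitals mark each match to TGANNNNGC, a loose form of the element.
Taldo1, chr7:141391910-141392159, plus strand: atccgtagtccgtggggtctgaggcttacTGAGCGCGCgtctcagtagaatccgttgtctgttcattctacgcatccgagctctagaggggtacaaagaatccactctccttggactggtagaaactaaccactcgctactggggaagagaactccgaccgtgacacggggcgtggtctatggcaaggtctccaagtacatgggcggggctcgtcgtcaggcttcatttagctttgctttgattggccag
Pgd, chr4:149166706-149166955, minus strand: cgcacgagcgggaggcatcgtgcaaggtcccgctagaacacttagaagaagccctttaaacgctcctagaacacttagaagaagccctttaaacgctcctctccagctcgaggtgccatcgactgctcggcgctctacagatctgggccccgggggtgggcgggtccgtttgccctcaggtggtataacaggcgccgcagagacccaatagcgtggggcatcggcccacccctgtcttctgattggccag
Tkt, chr14:30548881-30549130, plus strand: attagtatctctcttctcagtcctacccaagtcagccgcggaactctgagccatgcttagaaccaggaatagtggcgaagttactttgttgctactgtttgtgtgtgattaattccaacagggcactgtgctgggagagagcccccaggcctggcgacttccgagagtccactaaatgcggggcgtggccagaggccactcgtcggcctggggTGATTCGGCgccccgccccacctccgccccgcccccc
Me1, chr9:86695912-86696164, minus strand: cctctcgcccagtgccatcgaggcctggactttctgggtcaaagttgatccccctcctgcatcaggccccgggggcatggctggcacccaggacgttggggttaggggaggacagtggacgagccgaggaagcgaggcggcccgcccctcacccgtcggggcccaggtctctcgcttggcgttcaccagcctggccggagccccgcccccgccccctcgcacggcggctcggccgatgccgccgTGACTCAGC

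In these windows, which run from 250 bases before to 50 bases after a start, 4 motifs were searched on both strands. TGACNNNGC, the core of the antioxidant response element, matched at the Me1 start printed above (TGACTCAGC, bases -6 to 3) and at none of the other printed starts, and 12.4% of all 32851 promoters of this length hold a match. The same Me1 bases match the looser TGANNNNGC, found in 41.3% of promoters, and overlap a match to the AP-1 form TGANTCA, found in 7.81%. Taldo1 (TGAGCGCGC, bases -221 to -213) and Tkt (TGATTCGGC, bases -37 to -29) match the looser form alone. The table gives Pgd and Me1 a second start each. That of Pgd has a match to the core TGACNNNGC as well, TGACATTGC at bases 4 to 12, and that of Me1 has no match. TGCTGA, the form with GC before TGA that Maf proteins contact, occurs at none of the starts of the 4 genes and in 19.5% of promoters. A match describes the letters and is not a binding site, and the sequence under the peaks themselves was not used here because no mm9 genome was at hand.

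Binding near the 4 genes took 3 forms. The regions near Pgd and Tkt held a peak in all 6 libraries and had places in the score order that overlapped between the genotypes. Taldo1 had a pair of regions close to its start, of which the first was in all 6 libraries, high in the WT order and low in the AY order, and the second was in every WT and no AY library. Me1 had no peak in any library. Thus 3 of the 4 regions were held by all 6 libraries, as were 4.87% of all regions in the data set. One was WT-restricted, that is, called in every WT but in none of the AY libraries (5.21% of all regions), and none was AY-restricted (9.38% of all regions). The genes were chosen as known Nrf2 targets with earlier results in view, so these shares are a description. Every WT library had 4 peaks in the windows and every AY library had 3, although the lists were of very different length, 826 to 1604 peaks in WT and 1086 to 2154 in AY. The difference of 1 peak per library (exact permutation p = 0.1, two-sided) is the second Taldo1 region. Leaving out any 1 library could not change the counts of regions in the windows. Each region was in every library of a genotype or in none. At 100 kb on either side the difference in peaks per library became 0.667 (exact permutation p = 0.4), because AY replicate 3 had a further peak 69.8 kb from the Tkt start.

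**Figure D1:**
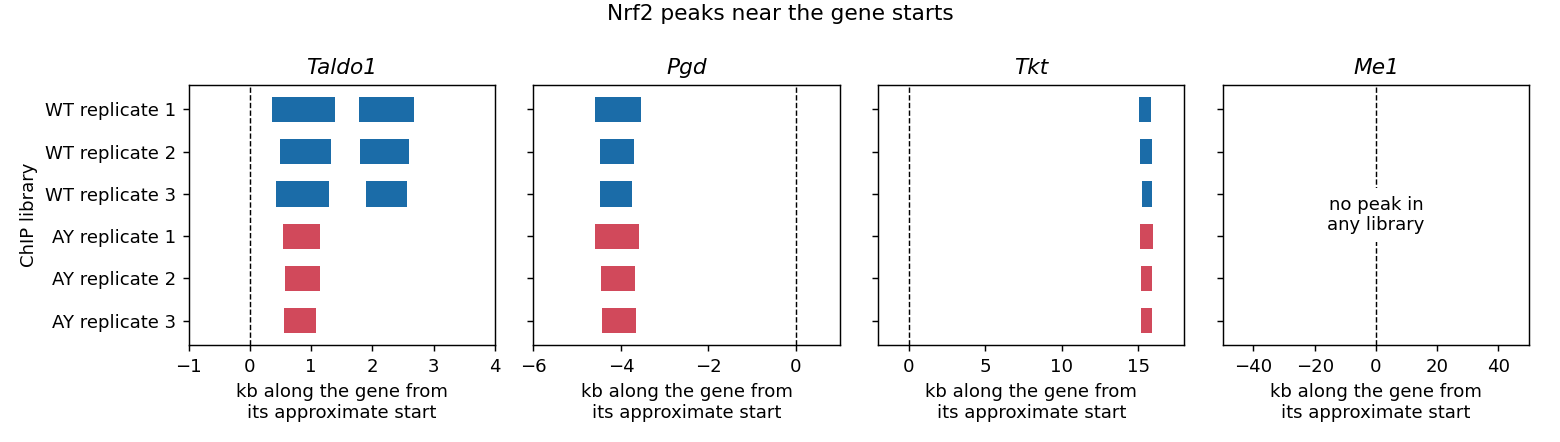
Called Nrf2 peaks of each ChIP library (rows, blue for WT and red for AY) by distance in kb from the approximate mm9 start of Taldo1, Pgd, Tkt and Me1, counted in the direction of transcription, with the start as a dashed line. Each bar is 1 peak from its start to its end, and the horizontal scales differ between panels. Both Taldo1 regions are present in the 3 WT libraries, the second is absent from the 3 AY libraries, and the Me1 window of 50 kb on either side is empty.

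The deposited score of a peak is the authors' own value from the peak caller and was used within a list only. To set libraries side by side, the 202 regions held by all 6 libraries were ranked by score in each library from 1, the highest, to 202. Libraries were thereby compared over the same regions, whatever the length of their lists. Places in a whole list are given beside these ranks as a description. Of the 202 regions, 122 (60.4%) had WT and AY ranks that did not overlap, so a separation of the genotypes was common among shared regions and is not particular to the genes described here.

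Pgd, the oxidative-branch enzyme, had 1 region, chr4:148544443-148545494, which lay 3.54 to 4.59 kb upstream of the gene start. All 6 peaks had the 689 bp from 148544636 to 148545324 in common. It held place 21 of 1604, 21 of 826 and 28 of 1533 peaks in the lists of WT replicates 1, 2 and 3, and place 33 of 2154, 28 of 1441 and 66 of 1086 in those of AY replicates 1, 2 and 3. The region was thus in the top 6.08% of every list. Among the 202 common regions, the WT libraries ranked it 18, 18 and 21 and the AY libraries 23, 19 and 40. The genotypes overlapped, since AY replicate 2 lay between the WT values, and AY replicate 3 was the lowest placed.

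The rank of the Pgd region averaged 19 ± 1.73 over the WT and 27.3 ± 11.2 over the AY libraries (SD, n = 3). The difference of 8.33 places did not exceed the spread (exact permutation p = 0.2, two-sided; Benjamini-Hochberg adjusted p over the 202 regions = 0.289), and 93 of the 202 regions had a difference further towards WT. It rested mostly on AY replicate 3, without which it was 1.33 places, and was 11.7 without WT replicate 3. Without AY replicate 2 it was largest, at 12.5 places (exact permutation p = 0.1). For each omission the ranks were taken anew over the regions common to the remaining libraries. Peak width was 1052, 796 and 736 bp in WT replicates 1, 2 and 3 and 1011, 768 and 777 bp in AY replicates 1, 2 and 3. The widths covered the same range in both genotypes, with replicate 1 the widest in each. Mean width differed by -9.33 bp, AY minus WT (exact permutation p = 0.9), and the sign of this difference turned when WT replicate 1, AY replicate 2 or AY replicate 3 was left out (to 86, 32.7 and 28.2 bp).

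Tkt, the transketolase gene, had 1 region 15.05 to 15.99 kb downstream of its start, chr14:31377352-31378288, with 621 bp common to all 6 peaks (31377511 to 31378131). It held place 64, 46 and 118 in the lists of WT replicates 1, 2 and 3 and place 64, 104 and 141 in those of AY replicates 1, 2 and 3. Ranked among the 202 common regions, it was at 50, 35 and 69 in the WT libraries and at 42, 54 and 66 in the AY libraries. The 3 AY ranks all fell inside the WT range. The ranks averaged 51.3 ± 17.04 over the WT and 54 ± 12 over the AY libraries (SD, n = 3) and so differed by 2.67 places (exact permutation p = 0.8, two-sided; adjusted p over the 202 regions = 0.851). This difference changed sign without AY replicate 3, to -6.67, and grew to 8.33 without AY replicate 1 and to 20.2 without WT replicate 3. For each omission the ranks were taken anew over the regions common to the remaining libraries, so the ranked set changed as well.

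Tkt peak widths were 780, 790 and 656 bp in WT replicates 1, 2 and 3 and 909, 723 and 771 bp in AY replicates 1, 2 and 3. They overlapped between genotypes, averaging 742 ± 74.6 bp in WT and 801 ± 96.6 bp in AY (SD, n = 3; exact permutation p = 0.6). The difference of 59 bp was 5 bp without AY replicate 1, 16 bp without WT replicate 3 and 98 bp without AY replicate 2. The Tkt region was ranked below the Pgd region in each of the 6 libraries, by 17 to 48 places in WT and by 19 to 35 in AY.

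Taldo1, the transaldolase gene, had its first region at chr7:148578462-148579485, which lay 0.362 to 1.39 kb downstream of the gene start and was the nearest to a start of the 4 regions. All 6 peaks had 514 bp in common, from 148578666 to 148579179. In the WT lists it was among the strongest peaks, with scores of 1322, 691.9 and 692.3 in replicates 1, 2 and 3, which were place 8 of 1604, 8 of 826 and 18 of 1533. In the AY lists the scores were 182, 71.9 and 121 in replicates 1, 2 and 3, at place 662 of 2154, 1014 of 1441 and 364 of 1086. The peak was thus in the top 1.17% of each WT list and at 30.7% to 70.4% of the way down each AY list.

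Among the 202 common regions the first Taldo1 region was at rank 7, 6 and 12 in the WT libraries and at rank 162, 191 and 120 in the AY libraries. Every WT rank was above every AY rank, by more than 100 places. The ranks averaged 8.33 ± 3.21 over the WT and 158 ± 35.7 over the AY libraries (SD, n = 3), 149 places apart (exact permutation p = 0.1, two-sided, the smallest possible; adjusted p over the 202 regions = 0.166). Ranks separated with WT placed higher at 65 of the 202 regions (32.2%). Only 2 of the 202 had a larger difference in this direction, where the middle 90% of regions had differences of -118 to 105 places. By mean WT rank the Taldo1 region was number 6 of the 202, and the other 9 of the first 10 had mean AY ranks of 1 to 93.3. Each library being omitted once, the difference was 135 to 198 places over the regions common to the 5 others, and 169 without WT replicate 3.

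**Figure D2:**
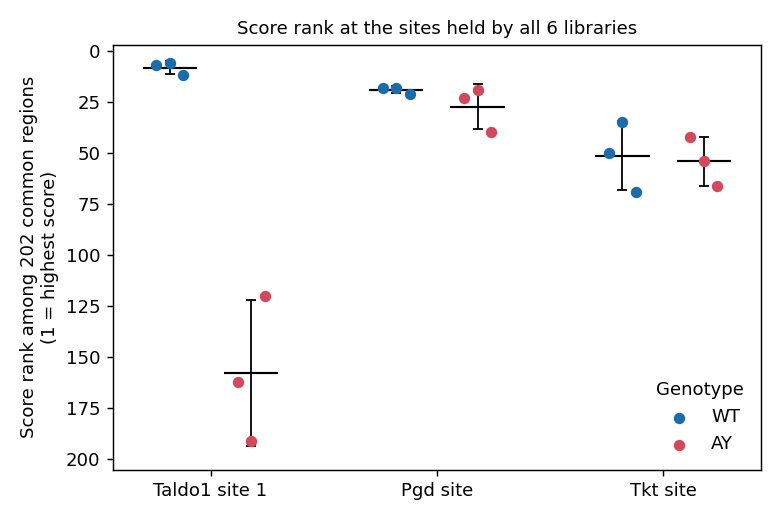
Score rank of the 3 regions held by all 6 libraries (vertical axis, 1 is the highest score of 202 common regions and is drawn at the top), with 1 point per ChIP library, blue for WT and red for AY. Horizontal bars are means and error bars are SD of 3 libraries. At the first Taldo1 region (Taldo1 site 1) WT ranks are 6 to 12 and AY ranks 120 to 191, whereas the ranks of the genotypes overlap at the Pgd and Tkt regions.

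**Figure D3:**
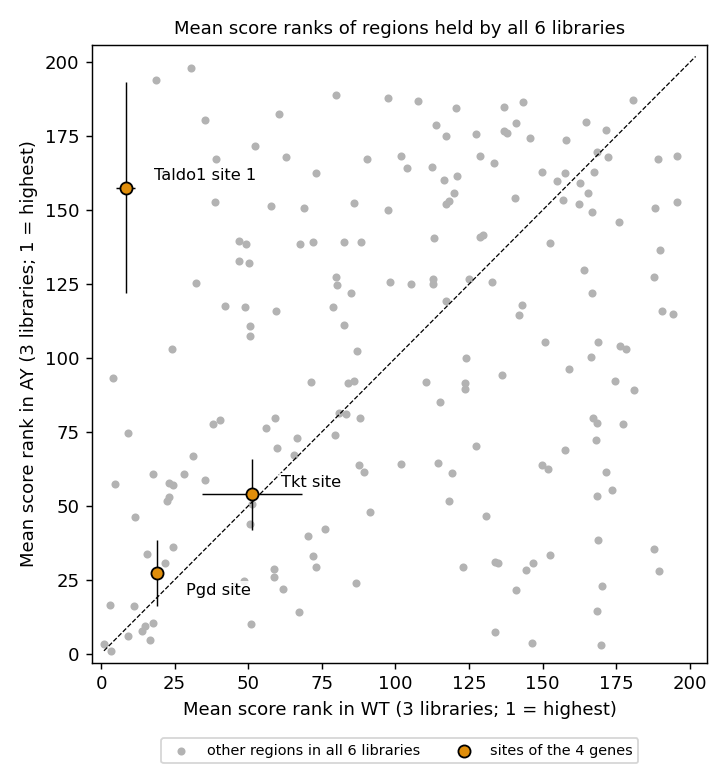
Mean score rank in the 3 WT libraries (horizontal axis) against that in the 3 AY libraries (vertical axis) for the 202 regions held by all 6 libraries, each a grey point, with 1 as the highest score and equal ranks on the dashed line. The 3 regions of the NADPH and pentose phosphate genes are in orange with SD of 3 libraries. The Pgd and Tkt regions lie near the line and the first Taldo1 region lies far above it, at 8.33 in WT and 158 in AY.

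The order of the shared regions within each library restates the same ranks and is not evidence apart from them. In each of the 3 WT libraries the first Taldo1 region ranked above the Pgd region, by 11, 12 and 9 places in replicates 1, 2 and 3, and Pgd ranked above Tkt. In each of the 3 AY libraries the order was Pgd, Tkt, Taldo1, and the Taldo1 region was 139, 172 and 80 places below Pgd in replicates 1, 2 and 3. AY replicate 3, whose ranks at Pgd and Tkt were the lowest among the AY libraries, had the highest AY rank at Taldo1.

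Peaks at the first Taldo1 region were also narrower in AY. Widths were 1024, 826 and 871 bp in WT replicates 1, 2 and 3 and 611, 587 and 520 bp in AY replicates 1, 2 and 3. No AY peak was as wide as the narrowest WT peak, and in all 9 pairs of a WT and an AY library the AY interval lay inside the WT interval. The same was true of 3 of 9 pairs at Pgd, all 3 with the wide peak of WT replicate 1, and 0 of 9 at Tkt. Such nesting was not counted over the 202 regions, and the 9 pairs share the same 6 libraries. It goes with the gap in width, so it is a description only. Widths averaged 907 ± 104 bp over the WT and 573 ± 47.2 bp over the AY libraries (SD, n = 3), an AY minus WT difference of -334 bp (exact permutation p = 0.1, two-sided; adjusted p over the 202 regions = 0.748). Widths separated the genotypes at 27 of the 202 regions (13.4%), at 12 of them with the wider peak in WT (5.94%). The Taldo1 difference was the most negative of the 202, whose median was 8.17 bp, and was -352 bp without WT replicate 3. Width and score of a called peak come from the same reads, so the narrower AY peaks are not evidence apart from the ranks.

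**Figure D4:**
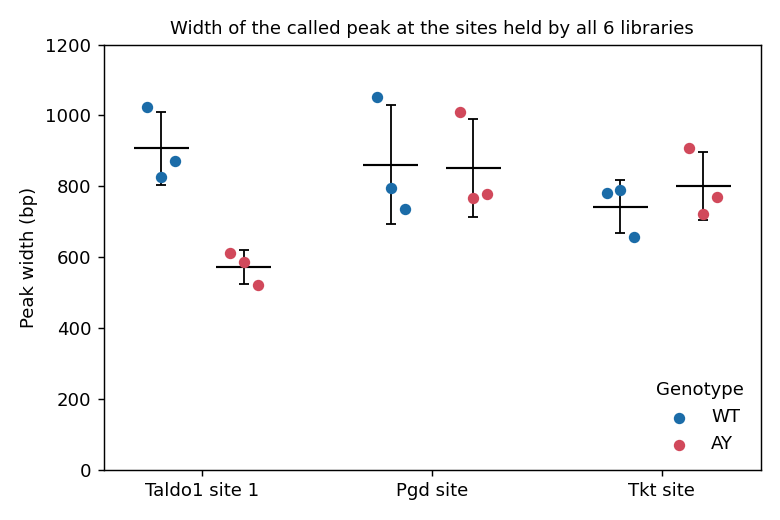
Width in bp of the called peak at the 3 regions held by all 6 libraries, with 1 point per ChIP library, blue for WT and red for AY, and bars for the mean and SD of 3 libraries. At the first Taldo1 region (Taldo1 site 1) the AY peaks are 520 to 611 bp and the WT peaks 826 to 1024 bp wide, whereas the genotypes overlap at Pgd and Tkt.

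The centre of the first Taldo1 region lay 880 ± 22.95 bp after the start over the WT libraries and 841 ± 20.03 bp over the AY libraries (SD, n = 3). The AY centres did not overlap the WT centres, with a difference of -38.8 bp (exact permutation p = 0.1, two-sided; adjusted p over the 202 regions = 0.631), and centres separated at 32 of the 202 regions (15.8%). The separation was narrow, with WT replicate 3 at 0.861 kb and AY replicate 2 at 0.859 kb. The Taldo1 difference was -48.3 bp without WT replicate 3 (exact permutation p = 0.1) and -26.1 bp without WT replicate 2 (exact permutation p = 0.2), the extremes with 1 library omitted. Peak centres of the genotypes overlapped at Pgd, with a difference of -23.7 bp (exact permutation p = 0.2), and at Tkt, with one of 46.5 bp (exact permutation p = 0.3). With 1 library omitted, the Pgd difference ranged from -36.2 bp (without AY replicate 1) to -9.75 bp (without AY replicate 3) and was -15.7 bp without WT replicate 3. That of Tkt ranged from 22.7 bp (without WT replicate 1) to 71.2 bp (without WT replicate 3).

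The second Taldo1 region, chr7:148579886-148580773, lay 1.79 to 2.67 kb downstream of the gene start and was WT-restricted. Its peaks were 888, 803 and 676 bp wide in WT replicates 1, 2 and 3 and had 676 bp in common. They scored 437.8, 300.8 and 306.4, at place 119 of 1604, 72 of 826 and 121 of 1533. The region was thus at 7.42% to 8.72% of the way down each WT list. No AY list had a peak there, AY replicate 1 with its 2154 peaks included. By mean relative rank it was number 13 of the 216 WT-restricted regions. Of the 69 regions in the top 10% of every WT list, 51 had a peak in all 3 AY libraries, 7 in 1 or 2 and 11, this one among them, in none.

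In each WT library the Taldo1 peaks were separate calls with 400, 481 and 598 bp between them in replicates 1, 2 and 3, and their centres were 1296 to 1372 bp apart. The second was the weaker of the pair in all 3. Of the 216 WT-restricted regions, this was the only 1 within 2 kb of a region held by all 6 libraries. Among the 389 AY-restricted regions, 2 lay that near to such a region. The distance was chosen after the values were seen and other regions were not counted, so these counts are a description. When peaks up to 1 kb apart were merged, the pair became 1 region held by all 6 libraries. With unknown read depth, a missing peak shows only that the region did not pass the caller's threshold, a score of 50, in the AY libraries.

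A stricter threshold moved the first Taldo1 region out of the shared set. With scores of at least 100, or with lists cut to the 826 highest-scoring peaks, the peak of AY replicate 2 (score 71.9) was lost and that of the other 5 libraries was kept. Under both settings the regions held by all 6 libraries in the windows were 2, those of Pgd and Tkt.

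Me1, the malic enzyme gene, had no peak within 50 kb of its start in any of the 6 lists. The nearest peak on chromosome 9 was 2.56 Mb away in each WT library and 2.56, 2.56 and 2.57 Mb away in AY replicates 1, 2 and 3, so an error of some kb in the approximate start would not alter this. It was farther than the next peaks beyond the described regions at the other genes. Those lay 0.375 to 1.01 Mb from the Taldo1 start, 0.614 to 0.894 Mb from that of Pgd and 0.0698 to 1.02 Mb from that of Tkt. The response-element core at the Me1 start, printed above, therefore had no called peak over it in either genotype.

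The regions are described by their distance to the gene starts, and whether they lie in an exon, an intron or between genes was not determined, since no mm9 annotation was used. Other genes have parts inside the same windows, by the GRCm38 gene table. These protein-coding neighbours are Eps8l2, Gatd1, Cend1, Slc25a22 and Pidd1 for Taldo1, Dffa, Cort, Cenps and Kif1b for Pgd, Dcp1a and Prkcd for Tkt, and Prss35 for Me1. The Pgd region lies on the side of Kif1b, which follows Pgd at its upstream end. Peak positions alone do not show which gene a region serves, and expression was not measured in these files.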

How the data were processed

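Per the labels' protocols, formaldehyde (1%, 10 min) fixed the cells and an antibody to Nrf2 precipitated their chromatin. The submitters' processing notes name mm9 as the build and MACS 1.4, Bowtie2 and bcl2fastq 2.15.0 as tools. Settings, duplicate handling and use of the inputs: not given in the sources used here. As for peaks, the authors deposited 1 peak list per ChIP library. The deposited score was read from its range as -10 log10 of a p-value per peak (50 corresponds to 1e-05). It was used within lists, apart from the alternative with a score of at least 100. The lists give no read counts, so depth is unknown.

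Peaks overlapping by at least 1 bp were merged into regions (Python 3.11.15, numpy 2.4.6), and coordinates count from 1. Gene starts are approximate mm9 positions fixed by the choice of genes. Strands come from the GRCm38.p6 promoter table. Genotype means were compared with two-sided exact permutation tests. Merging, ranking and tests were checked on simulated lists of well-separated sites with large rank shifts. That checks the code, and not how it treats neighbouring or partly shared peaks. All regions in the windows are named. Genes, windows and motifs were chosen with earlier results of these data known. Other NADPH-supplying genes were not analysed here, for want of mm9 positions.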

Additional observations from a re-analysis of the deposited data

How the results depend on the processing

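Alternatives were a score of at least 100, lists of equal length, an overlap of 50% of the shorter peak, omission of each library and of the 2 libraries numbered 3 together, windows of 25 and 100 kb, whole-list ranks, the replicate number as a block and, chosen after the data were seen, joining of peaks at most 1 kb apart. The last left 0 WT-restricted regions in the windows in place of 1, by construction. The rank difference at the first Taldo1 region kept its direction in all 11 alternatives that gave a value. The replicate block leaves the difference itself unchanged by construction, and the 50% overlap gave the same 149 places, so neither adds support. As whole-list ranks the difference was 44.0 percentage points. A score of at least 100 and equal lists gave none, as the region was then in 5 libraries. Leaving out 1 library gave width differences at Pgd of -88.8 to 86 bp, reversed from -9.33 bp without WT replicate 1 (86), AY replicate 2 (32.7) and AY replicate 3 (28.2). Over the regions common to the remaining libraries, it gave rank differences at Tkt of -6.67 to 20.2 places, reversed without AY replicate 3. These differences were within the spread between libraries, and the cause of the turns was not tested. No p passed 0.05 under any setting, and none could. With the replicate block, the Taldo1 rank difference of 149 places had an exact sign-flip p of 0.25, the smallest possible, and no call changed. Equal numbers were not read as pairs. Presence at the 1897 regions in 2 to 5 libraries, as deviation from the genotype mean, correlated by 0.0961 for number 1, 0.0861 for number 2 and 0.195 for number 3. Each WT library did correlate best with the AY library of its own number, which is a hint in the values only. Unknown depth limits every absence of a peak.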
